A study of Drosophila melanogaster with 6 samples.

Results

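TADs near the centromeres of Drosophila melanogaster were described in the eye and antennal imaginal discs, the paired larval epithelia that form the adult eye and antenna. A TAD (topologically associating domain) is a stretch of chromosome whose sequences contact each other in Hi-C more often than they contact sequences beyond its borders. The TADs were taken by position alone, as those starting at or beyond 20.5 Mb on 2L, 22 Mb on 3L and 20.5 Mb on X, or ending at or before 5 Mb on 3R (dm6). This gave 656 of the 5849 TADs in 5 libraries, and 961 of 8183 when the 2 lists that the authors called on pooled data were added. They were set against the 4097 other TADs that the 5 libraries held on the same 4 arms.

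The libraries were Hi-C preparations of 125 discs each, dissected from third-instar larvae of genotype yw;+;+, which both discs shared. Eye disc was represented by libraries 1, 2 and 3 and antennal disc by libraries 2 and 3, and antennal library 1 is not analysed here. Whether the pooled antennal list includes that library could not be checked. Eye and antennal discs were parted by hand, and each holds several cell types, so every TAD list is an average over them. Sequencing depth is unknown, because the lists hold no counts, and no RNA was measured with which to check the tissue labels. All list coordinates were multiples of 5 kb, taken here as the bin.

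The DNA on both sides of a fly centromere is heterochromatin, which is compacted, rich in transposons and satellite repeats, poor in genes and marked by methylated histone H3 lysine 9 and HP1. Genes that live there, such as light (lt) and the ribosomal protein genes RpL5 and RpL15, are active in that surrounding and often have introns swollen by transposons. Repeats also make Hi-C reads hard to place uniquely, so the mapped sequence of these stretches is known only in part. Heterochromatin itself was not measured, and the stretches below are defined by position.

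From their outer limits to the annotated gene nearest the centromere, the stretches measured 2.92 Mb on 2L, 6.01 Mb on 3L, 4.43 Mb on 3R and 3.04 Mb on X. They held 923 annotated genes, of which 630 were protein-coding, against 12989 genes in the rest of the arms. The density was 5.63 genes per 100 kb in the stretches and 14.4 in the rest. It was 3.18 on 3L and 3.18 on 3R against 15.0 and 15.1 in the rest of those arms, 6.75 against 12.2 on X, and 13.2 against 15.2 on 2L. On 3L the first 1 Mb inside the limit held 123 genes, and the next 5 windows of 1 Mb held 25, 14, 10, 4 and 15. The label of a region near the centromere was thus borne out by gene density on 3L, 3R and X. On 2L the first 1 Mb held 233 genes, and an array of 119 histone genes lay across its inner end.

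At the outer limits, the pooled eye list had a TAD of 160 kb just inside and one of 180 kb just outside on 2L, 190 and 110 kb on 3L, 150 and 180 kb on 3R, and 95 and 85 kb on X. Widths on the 2 sides of the limits thus overlapped in that list.

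Calls did not reach equally far toward the centromere in the 5 libraries. Eye library 1 had 71 TADs in the stretches, eye library 2 had 152 and eye library 3 had 153. Antennal library 2 had 152 and antennal library 3 had 128. Eye library 1 stood lowest because its calls on 3L and 3R ended early, with 17 and 13 TADs there, and antennal library 3 had 20 TADs on 3R against 63 on 3L. Eye library 2 had 57 TADs on 3L and 57 on 3R, eye library 3 had 60 and 54, and antennal library 2 had 62 and 53. Results that rest on eye library 1 and antennal library 3 are given below without them, or for the 8.75 Mb of the stretches that all 5 libraries called.

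**Figure D1:**
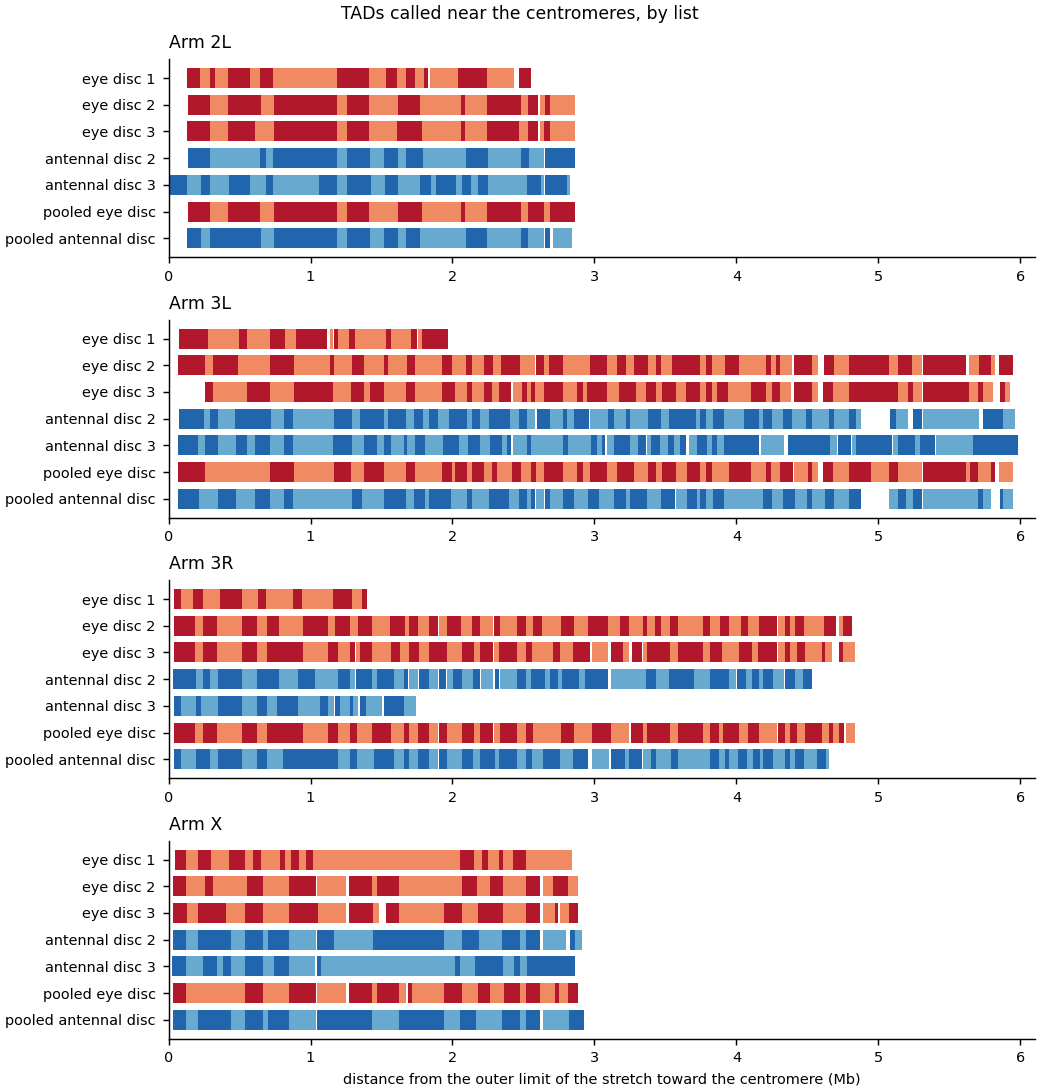
TADs in the stretches near the centromeres of arms 2L, 3L, 3R and X in each of the 5 libraries and the 2 pooled lists, plotted as distance (Mb) from the outer limit toward the centromere, with neighbouring TADs in alternating shades (red for eye disc, blue for antennal disc) and uncalled sequence in white. Eye disc 1 stops early on 3L and 3R, antennal disc 3 stops early on 3R, and the other libraries fill nearly the whole stretch.

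The innermost TAD of eye library 1 on 3L was 3L:23785001-23965000, and 4048 kb with 43 genes, 22 of them protein-coding, lay uncalled beyond it. Its inner edge fell in CG40470. The innermost edges of the other libraries on 3L were 27950000 and 27930000 in eye libraries 2 and 3, against 27960000 and 27985000 in antennal libraries 2 and 3, all near l(3)80Fj. The 4 libraries other than eye library 1 thus ended close together on 3L. On 3R the innermost start was 3605001 in eye library 1, near Parp1, and 3260001 in antennal library 3, at Pzl, which left 3038 and 2693 kb and 10 and 8 genes uncalled. The same edge lay at 185001 in eye library 2, 165001 in eye library 3 and 465001 in antennal library 2, all past the first annotated gene, Myo81F, which starts at 567076. On 2L eye library 1 ended at 23050000, near the splicing factor gene Spf45, eye libraries 2 and 3 and antennal library 2 ended at 23360000 and antennal library 3 at 23330000, the last 4 near CR42530. The innermost edges on X lay between 23340000 (eye library 1) and 23410000 (antennal library 2), and the nearest gene was a 2S ribosomal RNA gene, 2SrRNA:CR45864. The pooled lists ended at 23360000 (eye) and 23345000 (antennal) on 2L and at 27950000 in both on 3L. On 3R they started at 165001 (eye) and 345001 (antennal), and on X they ended at 23385000 (eye) and 23425000 (antennal), the last nearest to mir-10404-5.

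The share of the stretches covered by TADs was 52.8% in eye library 1, 97.1% in eye library 2, 96.0% in eye library 3, 95.7% in antennal library 2 and 80.7% in antennal library 3. In the rest of the arms it averaged 99.1% ± 0.110 (SD, n = 5). The mean difference was -14.6 percentage points, lower in 5 of 5 libraries (exact two-sided sign-flip test over libraries, p = 0.0625, the smallest that 5 libraries can give, and 0.0625 after Benjamini-Hochberg adjustment over the 5 measures compared with the rest in this way). Its size came mostly from 2 libraries: the difference was -6.72 points without eye library 1 and -2.85 points without eye library 1 and antennal library 3.

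Sequence left out between neighbouring TADs took a larger share near the centromeres. Gaps took 1.03%, 1.42% and 2.51% of the called span in eye libraries 1, 2 and 3, and 2.83% and 1.38% in antennal libraries 2 and 3. The mean was 1.83% ± 0.787 near the centromeres and 0.135% ± 0.0712 in the rest (SD, n = 5 each), a difference of 1.70 points that was positive in 5 of 5 libraries (exact sign-flip test, p = 0.0625). In the part that all 5 libraries called the difference was 0.676 points. The widest gap lay on 3L in antennal library 2, 3L:26875001-27085000 (210 kb), and the pooled antennal list had a gap with the same start, 3L:26875001-27075000 (200 kb). No annotated gene overlapped the pooled gap.

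Among the pooled lists' other widest gaps, those on 3R lay at 3R:2015001-2045000 (30 kb, antennal), inside Myo81F, and at 3R:225001-245000 (20 kb, eye), where no gene is annotated. The widest gap of the pooled eye list on 3L, 3L:26575001-26610000 (35 kb), was also free of genes. On X the pooled eye list had a gap at X:21750001-21770000 (20 kb), which overlaps flamenco, and the pooled antennal list one at X:23115001-23140000 (25 kb). On 2L the pooled antennal list left out 2L:23190001-23210000 (20 kb) and the pooled eye list had no gap. At 3L:27820001-27850000 the pooled eye list left a gap of 30 kb, and at 3L:27795001-27855000 the pooled antennal list left 60 kb. Both run into eIF4B, which encodes a translation initiation factor, at 3L:27842669-27858271.

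TADs near the centromeres had a median width of 80, 87.5 and 85 kb in eye libraries 1, 2 and 3, and of 80 and 80 kb in antennal libraries 2 and 3. The rest of the arms had medians of 90, 100 and 110 kb in eye libraries 1, 2 and 3, and of 100 and 90 kb in antennal libraries 2 and 3, so the 2 sets of values did not overlap. The mean of the medians was 82.5 ± 3.54 kb near the centromeres and 98 ± 8.37 kb in the rest (SD, n = 5 each). The difference was -15.5 ± 6.71 kb, below 0 in 5 of 5 libraries (exact sign-flip test, p = 0.0625).

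That difference was not shared by the arms. On 3L the mean of the library medians was 72.5 ± 7.07 kb near the centromere and 96 ± 6.52 kb in the rest (SD, n = 5 each), lower in 5 of 5 libraries. On 3R it was 73.5 ± 7.42 against 95 ± 7.91 kb, lower in 4 libraries and equal in eye library 1. On 2L it was 124 ± 31.5 against 102 ± 11.5 kb, higher in 4 libraries and equal in eye library 1. On X it was 105.5 ± 21.9 against 101 ± 7.42 kb, higher in 3 and lower in 2. The arms were not tested one by one, and the mean width over the 4 arms differed by -3.80 kb with 3 libraries lower and 2 higher (exact sign-flip test, p = 0.625).

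**Figure D2:**
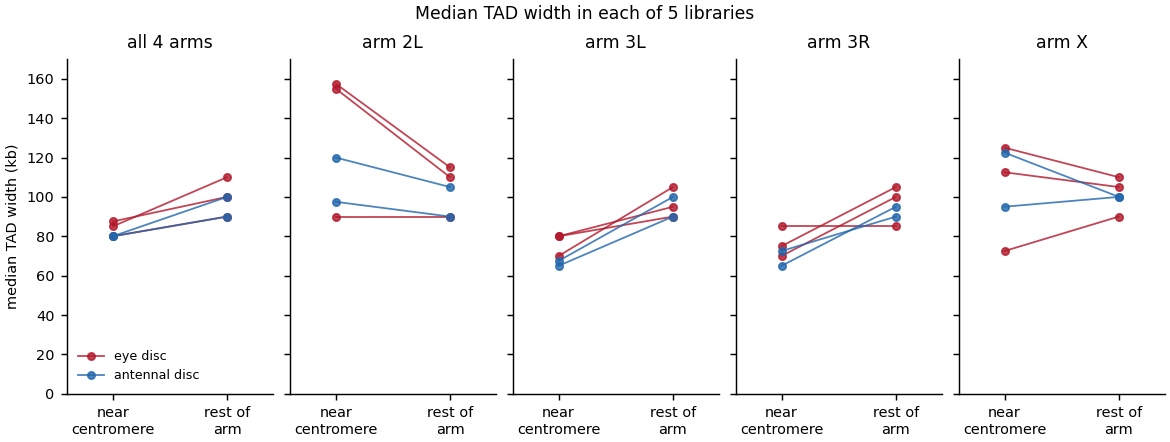
Median TAD width (kb) near the centromere and in the rest of the arm, over all 4 arms and for each arm, with a line for each of the 5 libraries (red for eye disc, blue for antennal disc). The lines slope up toward the rest of the arm on 3L in all 5 libraries and down on 2L in 4 of them.

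Narrow TADs lay in the inner part of 3L and 3R. In the 8.75 Mb called by all 5 libraries, the medians were 80, 135 and 130 kb in eye libraries 1, 2 and 3 and 120 and 85 kb in antennal libraries 2 and 3, with a mean of 110 ± 25.7 kb (SD, n = 5). Set against the rest of the arms, this outer part differed by 12.0 kb, with the sign turned: it was higher in 3 libraries and lower in eye library 1 and antennal library 3 (exact sign-flip test, p = 0.25). On 3L and 3R beyond it, eye library 2 had 88 TADs with a median of 70 kb, eye library 3 had 90 with 67.5 kb and antennal library 2 had 86 with 65 kb. Antennal library 3 had 46 TADs there with a median of 62.5 kb. Within each of the 3 libraries called to the inner end of both arms, the inner median was thus below the outer one. The outer value covers all 4 arms and the inner one only 3L and 3R, so arm and position are not separated. On 3L alone, the second 1 Mb window from the limit had medians of 105 and 100 kb in eye libraries 2 and 3 and 65 and 85 kb in antennal libraries 2 and 3. The windows beyond it had 70 to 80 and 55 to 92.5 kb, and 60 to 85 and 50 to 165 kb, in the same order.

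The widest TAD of the 2L stretch held the histone genes, which encode the proteins that DNA is wound on and lie in a tandem array. The array, with 119 histone genes and pseudogenes at 2L:21404181-21543688 (139.5 kb), counted 23 copies of His1, 20 of His2A, 23 of His2B, 23 of His3, 22 of His4 and 8 of His-Psi. The TAD around it was 450, 445 and 445 kb wide in eye libraries 1, 2 and 3 and 450 kb in antennal library 2, and ended at 21685000 in all 4. In antennal library 3 it ended at 21560000 and was 325 kb wide. It was 445 kb wide in both pooled lists, with 171 genes, and its longest protein-coding genes were Mondo, a sugar-responsive transcription factor, Hr39, a nuclear receptor, and CG8671. In no library did a TAD border fall between the first and the last histone gene. Whether a border could be called within these repeated copies was not tested.

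On X the widest TADs lay around flamenco (lncRNA:flam), a piRNA cluster whose transcripts silence retrotransposons in follicle cells of the fly ovary, at X:21631891-21790731. Beyond it no gene is annotated for 352 kb, then come 21 genes from CG40813 on at X:22143058-22252414, spaced by a median of 4.996 kb, and then 192 kb without a gene. Eye library 1 put all of this in a TAD of 1035 kb, X:21515001-22550000, and antennal library 3 in a TAD of 940 kb, X:21575001-22515000. The widest X TAD was 445 kb in eye library 2, 320 kb in eye library 3 and 500 kb in antennal library 2, and these 3 held the 21 genes but not flamenco. Those 5 TADs were the widest of the X stretch in each library, and flamenco was crossed by 2 borders in each of eye libraries 2 and 3 and by 1 in antennal library 2. The widest TAD of the pooled antennal list on X, X:21545001-21930000 (385 kb), held flamenco, with DIP1, CG32820 and CG32819 as its longest protein-coding genes. That of the pooled eye list, X:20625001-21035000 (410 kb), lay nearer the outer limit with shakB, a gap junction innexin, CG1835 and run, the pair-rule gene runt.

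On 3L and 3R the widest TADs lay at several places. On 3L the pooled eye list had 3L:22260001-22715000 (455 kb), with the cell-surface teneurin gene Ten-m, CG14459 and the kinase gene Srpk79D, and the pooled antennal list had 3L:22880001-23290000 (410 kb), with the acetylcholine receptor gene nAChRalpha4, nrm and CG12768. In the libraries the widest 3L TAD was 220, 305 and 345 kb in eye libraries 1, 2 and 3 and 395 and 320 kb in antennal libraries 2 and 3, and in all but eye library 1 it lay in the inner part, with 4 genes or fewer in it. Those of eye library 2 and antennal library 2 shared their start, 27315001, and held Dbp80. On 3R the pooled eye list had 3R:4050001-4305000 (255 kb), which was also the widest of eye library 3, with CG42402, the complexin gene cpx and the auxilin gene aux, and the pooled antennal list had 3R:3810001-4195000 (385 kb), with CG42402, CG41099 and CG12581.

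TADs near the centromeres were gene-poor, and many held no gene midpoint. TADs held 9.86, 5.57 and 5.62 genes per 100 kb near the centromeres in eye libraries 1, 2 and 3, and 5.74 and 6.86 in antennal libraries 2 and 3. The mean was 6.73 ± 1.83 near the centromeres and 14.4 ± 0.0117 in the rest (SD, n = 5 each), a difference of -7.71 with 5 of 5 libraries lower (exact sign-flip test, p = 0.0625). The small spread of the rest reflects that the gene positions are the same for every library. Before any TAD was called, the stretches held 5.63 genes per 100 kb and the rest 14.4. The lower density in each library thus follows largely from the shared annotation, and the test is not independent support for it. Eye library 1, with no calls in the inner part, was highest. In the part called in all 5 libraries the difference was -4.44, again with 5 of 5 libraries lower.

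No gene midpoint lay in 5.63%, 40.1% and 40.5% of the TADs near the centromeres in eye libraries 1, 2 and 3, or in 38.2% and 26.6% in antennal libraries 2 and 3. In the rest of the arms the share was at most 0.442% in any library. The median number of genes per TAD was 7, 1 and 1 in eye libraries 1, 2 and 3 and 1 and 2 in antennal libraries 2 and 3 near the centromeres, and 12 to 15 in the rest. In 5 of 5 libraries the share without a gene midpoint was thus higher and the median number lower near the centromeres. TADs wholly inside a long gene can fall in this share. Eye library 2 had 25 TADs wholly inside Myo81F and 8 wholly inside Pzl, so the share is not one of gene-free sequence.

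Gene ends were less concentrated at TAD borders near the centromeres. The density of gene starts and ends within 1 bin of a border was divided by their density over the whole called span, so that 1 means no concentration. Near the centromeres this ratio, taken over the 4 arms together, was 1.19, 0.848 and 0.607 in eye libraries 1, 2 and 3. It was 0.755 and 0.945 in antennal libraries 2 and 3, and so above 1 in eye library 1 alone. The mean was 0.870 ± 0.219 near the centromeres and 1.45 ± 0.0919 in the rest (SD, n = 5 each), a difference of -0.576 that was negative in 5 of 5 libraries (exact sign-flip test, p = 0.0625). Without histone genes, an alternative added after seeing the data, the difference was -0.442 and negative in 4 of 5 libraries, with eye library 1 at 0.02 (exact sign-flip test, p = 0.125).

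The largest genes near the centromeres were cut into many TADs. Myo81F, which encodes an unconventional myosin, spans 1966 kb at 3R:567076-2532932. It had 25 and 22 TADs wholly inside it in eye libraries 2 and 3 and 22 in antennal library 2, and 21 and 26 in the pooled eye and pooled antennal lists, while eye library 1 and antennal library 3 called no TAD there. Pzl, which encodes the mechanosensory channel Piezo-like, spans 709 kb at 3R:2554162-3263582 and had 8, 7 and 9 TADs wholly inside it in eye libraries 2 and 3 and antennal library 2. On 3L, lovit, a vesicular histamine transporter gene of photoreceptors, spans 434 kb at 3L:25236940-25670980 and had 4 and 5 TADs inside it in eye libraries 2 and 3, and 3 and 8 in antennal libraries 2 and 3. Snap25, which encodes a synaptic SNARE protein, spans 225 kb at 3L:24074180-24299205 and had 3 and 3 in eye libraries 2 and 3, and 3 and 2 in antennal libraries 2 and 3. TADs wholly inside a gene are narrower than it by definition. Those inside Myo81F had a median of 65, 77.5 and 67.5 kb in eye libraries 2 and 3 and antennal library 2. Over the whole inner 3L and 3R the median was 70, 67.5 and 65 kb. Whether these genes held more TADs than other sequence of the same length was not tested.

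**Figure D3:**
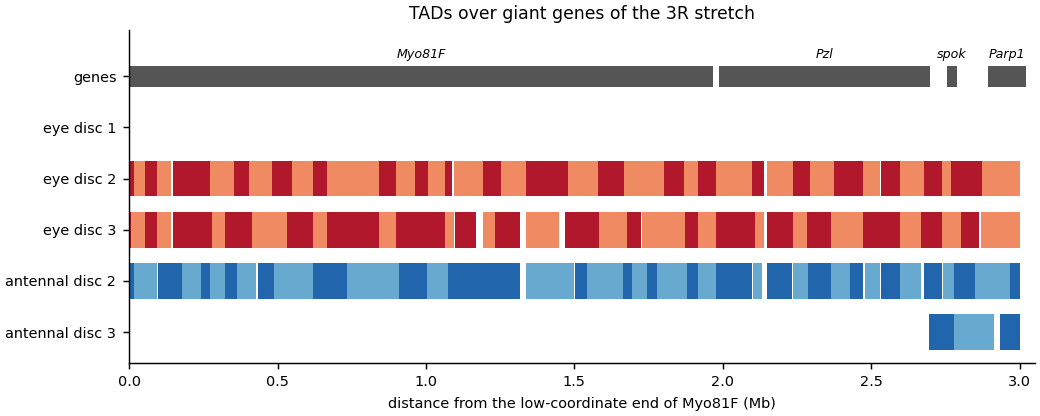
TADs (coloured bars, neighbours in alternating shades) of the 5 libraries along the first 3 Mb from the low-coordinate end of Myo81F on 3R, with the genes Myo81F, Pzl, spok and Parp1 in grey above them. Eye disc 2, eye disc 3 and antennal disc 2 divide Myo81F and Pzl into many TADs, and eye disc 1 and antennal disc 3 have none over Myo81F.

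A list of 27 genes known from pericentric heterochromatin or its edge was looked up, and 26 lay in the stretches (dbr did not). Of these 26, 14 had their midpoint in a TAD in all 5 libraries, 9 in 4 and 3 in 3. No listed gene lay in a TAD with the same borders, within 1 bin, in all 5 libraries, and 3 did so in eye libraries 2 and 3 and antennal library 2: tsh, RpL15 and su(f). A border fell inside 15 of the 26 genes in at least 1 library. The positions of exons and introns were not used here.

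Among the 2L genes, lt, which encodes a subunit of the HOPS vesicle-tethering complex, lay at 2L:22924795-22943135 in TADs of 190, 235 and 225 kb in eye libraries 1, 2 and 3 and of 230 and 275 kb in antennal libraries 2 and 3. A border fell inside it in eye library 1 only, where a gap of 35 kb, 2L:22935001-22970000, follows. The neighbouring cta, which encodes the G-protein alpha subunit concertina, lay at 2L:22981816-22992951 in TADs of 80, 50 and 65 kb in eye libraries 1, 2 and 3, and of 60 and 275 kb in antennal libraries 2 and 3. The chitinase gene Cht10 (Cht3 in the list) shared the TADs of cta. RpL5 lay in TADs of 195, 290 and 275 kb in eye libraries and of 305 and 40 kb in antennal libraries, in the same order. The sizes for these 4 genes were most alike in eye libraries 2 and 3 and antennal library 2.

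Teashirt (tsh), a zinc finger gene that can drive eye formation when misexpressed, and its paralog tiptop (tio) are 2L neighbours. The gene tsh lay at 2L:21828593-21837011 in TADs of 230, 160 and 160 kb in eye libraries 1, 2 and 3 and of 165 and 170 kb in antennal libraries 2 and 3, with no border inside it in any. The TADs around tio were 120, 200 and 195 kb in eye libraries and 100 and 100 kb in antennal libraries, and a border fell inside tio in antennal library 3. Around tio every eye value was thus above both antennal values, but with 3 against 2 libraries no difference at a single gene can be shown.

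On 3L, RpL15 lay in TADs of 65 and 60 kb in eye libraries 2 and 3 and of 60 and 30 kb in antennal libraries 2 and 3, and vtd, the cohesin subunit gene Rad21, in TADs of 105 and 65 kb and of 85 and 120 kb. Eye library 1 had no TAD at either gene. The piRNA pathway gene AGO3, at 3L:23554593-23689640, had a border inside it in all 5 libraries, in TADs of 140, 135 and 155 kb in eye libraries and 130 and 90 kb in antennal libraries at its midpoint. The RNA helicase gene Dbp80 (143 kb) lay in TADs of 305 and 325 kb in eye libraries 2 and 3 and of 395 and 110 kb in antennal libraries 2 and 3. The ecdysteroid synthesis gene nvd (neverland) had a border inside it in 3 of the 4 libraries that called it. Of the others, nrm, which encodes a cell adhesion protein, lay in TADs of 215 to 285 kb without an internal border, and Set1, a histone H3 lysine 4 methyltransferase gene, in TADs of 40 to 85 kb.

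On 3R, Parp1 (Parp in the list), which encodes poly(ADP-ribose) polymerase, lay in TADs of 130 and 135 kb in eye libraries 2 and 3 and of 120 and 110 kb in antennal libraries 2 and 3, with a border inside it in each. The steroid synthesis gene spok (spookier) lay in TADs of 105 and 65 kb in eye libraries 2 and 3 and of 35 and 85 kb in antennal libraries 2 and 3. On X, su(f), an RNA 3' end processing gene, lay in TADs of 320, 100 and 100 kb in eye libraries and of 100 and 335 kb in antennal libraries. The stoned genes stnA and stnB, which share a transcript and act in synaptic vesicle recycling, lay in TADs of 95, 160 and 160 kb in eye libraries and of 40 and 50 kb in antennal libraries. The proline dehydrogenase gene slgA had 55, 190 and 200 kb in eye libraries and 195 and 185 kb in antennal libraries, and fliI, an actin-binding gelsolin family gene, had 45, 185 and 185 kb and 145 and 100 kb. The gastrulation gene fog had a border inside it in all 5 libraries, in TADs of 30, 90 and 175 kb in eye libraries and of 165 and 200 kb in antennal libraries at its midpoint. Apart from those at stnA and stnB, where every eye library was above both antennal libraries but the pooled lists had 40 kb (eye) and 45 kb (antennal), the widths at these X genes overlapped between the discs.

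Borders near the centromeres were found again less often in other libraries. A border was matched where the paired library held another no more than 1 bin away, and the share was taken over the borders of both libraries. Eye libraries 2 and 3 matched at 62.7% near the centromeres and 78.6% in the rest, the highest pair in both. Eye library 2 and antennal library 2 matched at 50.5% and 72.8%, eye library 3 and antennal library 2 at 47.8% and 68.2%, and antennal libraries 2 and 3 at 36.0% and 69.2%. The 4 pairs with eye library 1 matched at 15.9% to 23.3% near the centromeres.

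Over all 10 pairs the mean share was 33.0% near the centromeres and 64.3% in the rest, a difference of -31.3 points with all 10 pairs lower. The pairs share libraries, so no test was made. In the part called in all 5 libraries the mean was 44.8% (10 of 10 pairs lower by -19.4 points on average), and without eye library 1 and antennal library 3 it was 53.7% near the centromeres and 73.2% in the rest. With both restrictions it was 63.9%, a difference of -9.31 points. Pairs of the same disc averaged 33.2% near the centromeres and pairs across discs 32.8%, against 65.6% and 63.4% in the rest.

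**Figure D4:**
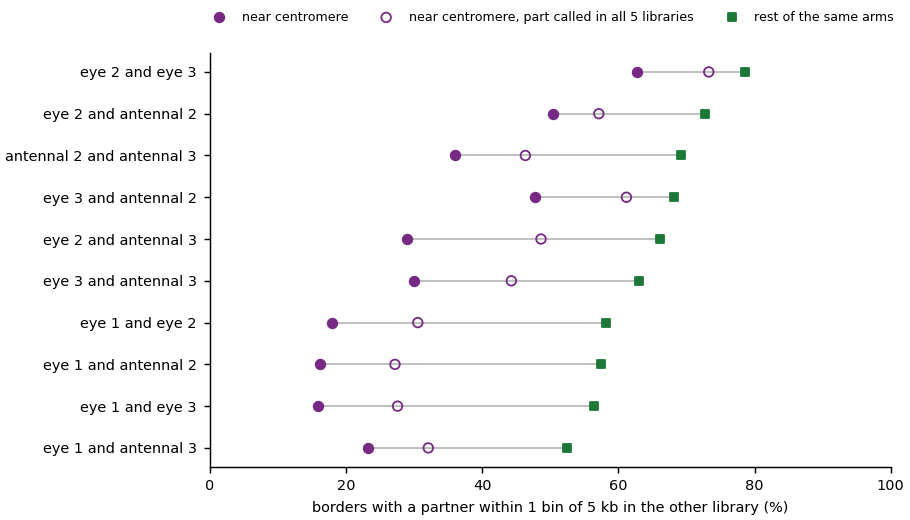
Share of TAD borders (%) with a partner within 1 bin of 5 kb in the other library, for each of the 10 pairs of libraries, near the centromeres (filled circles), in the part of those stretches called in all 5 libraries (open circles) and in the rest of the same arms (squares). The filled circle lies left of the square in all 10 pairs, and the open circle lies between them.

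Arms differed in this too. The mean over pairs was 52.6% near the centromere and 62.9% in the rest on 2L, 28.1% and 66.1% on 3L, 28.02% and 65.1% on 3R, and 34.7% and 62.5% on X. In windows of 1 Mb, counting only pairs that called the window, the mean on 2L was 66.7%, 54.9% and 42.3% in the 3 windows from the limit inward. On 3L it was 48.5%, 38.9%, 34.6%, 43.9%, 29.8% and 27.9%, with 10 pairs in the first window and 6 in the last. On 3R it was 56.0%, 41.5%, 53.5%, 44.0% and 41.3%, with 10 pairs in the first window and 3 in the last. The lowest window, at 19.9%, was the second of X, which holds flamenco and the 21-gene array. Pairs had only 4 to 14 borders in that window, and their shares ran from 0 to 57.1%. The X window just outside the limit was at 45.2% and the first inside it at 41.4%. Without eye library 1 and antennal library 3, the mean was 71.1% near the centromere and 71.3% in the rest on 2L, 49.4% and 74.3% on 3L, 51.4% and 72.2% on 3R, and 56.8% and 75.3% on X, so that the values on 2L were nearly equal. The pooled lists matched each other at 58.7% near the centromeres and 75.7% in the rest.

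**Figure D5:**
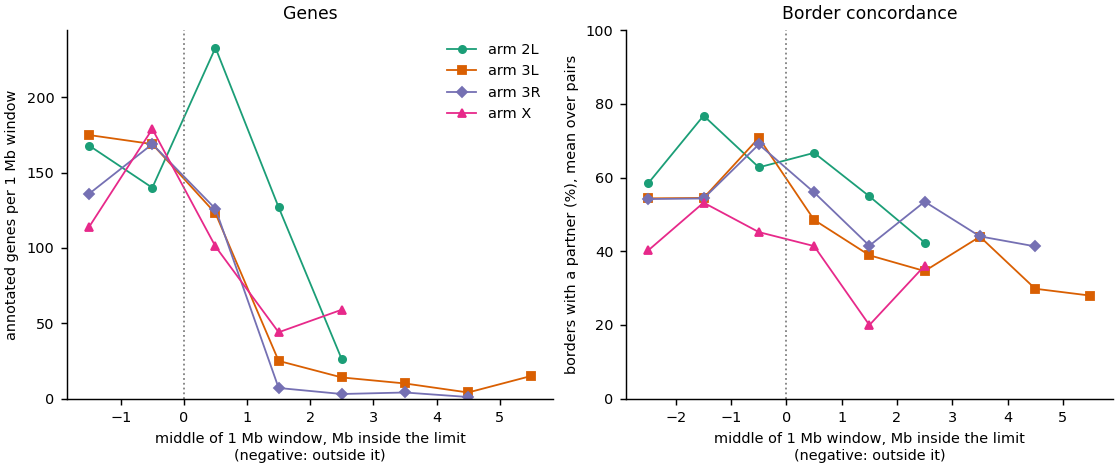
Annotated genes per 1 Mb window (left) and mean share of matched borders over the pairs that called the window (right, %), against the middle of the window in Mb inside the outer limit of each stretch (negative values lie outside it), for arms 2L, 3L, 3R and X. Genes fall steeply inside the limit on 3L, 3R and X and a window later on 2L, and the lowest share of matched borders is the second X window.

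Few whole TADs near the centromeres recurred. A TAD with both borders within 1 bin was found in no other library for 84.5%, 52.0% and 54.2% of the TADs near the centromeres in eye libraries 1, 2 and 3 and for 66.4% and 78.9% in antennal libraries 2 and 3. In the rest of the arms the shares were 54.3%, 20.6% and 26.2% in eye libraries 1, 2 and 3 and 26.6% and 40.2% in antennal libraries 2 and 3. At most 1 TAD near the centromeres in any library was matched in all 4 others (0.658% or less), against 76 to 87 in the rest (8.39% to 11.3%). Eye library 1 had no TAD in the inner part, where eye library 2 had 93 of its 152, which limits matches in all 4 others. These shares were not taken for the part called in all 5 libraries.

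Borders of the 5 libraries within 1 bin of each other were joined into 399 sites near the centromeres, among 2345 on all arms of the series. A border in all 5 libraries was found at 15 of the 399 sites (3.76%), against 24.1% in the rest of the same arms and 19.5% over all sites. Sites in a single library were 216 (54.1%), against 36.0% in the rest and 39.3% over all. In the part called in all 5 libraries, 15 of 177 sites were in all 5 (8.47%).

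By arm, 7 of the 15 sites in all 5 libraries lay on 2L (among 48 sites there), 2 on 3L (among 166), 3 on 3R (among 120) and 3 on X (among 65). On 2L the 5 nearest to the centromere fell at CG40006 (between 22745000 and 22750001), CG6675, CG11634, nolo, an ADAMTS-like gene of the nervous system, and CG31626. The last 2 lie at 21685000 and at 21235000 to 21240001 and are the borders of the histone TAD in 4 of the 5 libraries. On 3L the sites were at ArfGAP3, an Arf GTPase-activating gene, at 22715000 and 9.50 kb from Vps11, a HOPS subunit gene, at 23155000. On 3R they were at Sfxn1-3, a sideroflexin gene, at sac and at Jhbp1, and on X at RunxA, a Runt-domain transcription factor gene, at CG42346, where the site also falls inside fog, and at Coa7. All 15 lay in the outer part, and none was in the inner 3L or 3R, where eye library 1 had no calls.

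Few sites separated the discs. The share in eye libraries only was below that of the rest, and the share in antennal libraries only was above it. A site in all 3 eye libraries and neither antennal library was found once among 399 (0.251%), against 2.00% in the rest and 1.71% over all sites. Eye library 1 had no calls outside the part called in all 5 libraries, so such a site could occur only among the 177 sites in that part (0.565%), and without eye library 1 the count was 30. The site lay on 3R at 4050000 to 4060001, 22.9 kb from CG42402, and the nearest antennal border was 35 kb away. Sites in both antennal libraries and no eye library numbered 19 (4.76%), against 2.94% in the rest and 3.37% over all. Of these 19, 12 were on 3L and only 7 lay in the part called in all 5 libraries (3.95% of the 177 sites there). Outside that part a site needed to be absent from 2 eye libraries only.

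The antennal sites were nearest to Ret, a receptor tyrosine kinase gene, on 2L. On 3L they were nearest to Ten-m, CG11425, Snap25 (2 sites), scro, an NK-2 homeobox gene, UQCR-11, lovit (2 sites), lncRNA:CR45180, CR41320, CG42598 and CG40228. Those nearest to the last pair lay 286 and 239.6 kb from the gene. On 3R they were nearest to spok, CG42402 and ctrip, a ubiquitin ligase gene, and on X to Npc1b, a sterol uptake gene of the midgut, stnA and 2SrRNA:CR45864. An eye border lay 10 to 47.5 kb from each of the 19. Single sites could not be tested with 3 against 2 libraries.

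Over the stretches as a whole, no test between eye and antennal discs passed, and none could with these libraries. The number of TADs near the centromeres was 125 ± 47.1 in eye disc (SD, n = 3) and 140 ± 17.0 in antennal disc (n = 2), a difference of -14.7 (exact two-sided permutation test over 10 assignments, p = 1). The median width was 84.2 ± 3.82 kb in eye disc and 80 ± 0 kb in antennal disc, a difference of 4.17 kb (exact test, p = 0.4). Coverage was 82.0% ± 25.3 in eye disc and 88.2% ± 10.7 in antennal disc, a difference of -6.25 points (exact test, p = 1). Adjusted over these 3 tests all p were 1, and the smallest p that 3 against 2 libraries allow is 0.2. Without eye library 1 the difference in the number of TADs was 12.5 and that in coverage 8.33 points, both with the sign turned, and without antennal library 2 that in coverage was 1.29 points.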

How the data were processed

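Hi-C was measured in whole discs, and the authors deposited lists of TADs with starts and ends in base pairs (dm6, per the submitters' processing notes, which also name Bowtie2 2.3.4.2). The TAD caller, its settings and the sequencing depth are not given in the sources, and the bin was read from the coordinates. Nothing was filtered out of the lists. They give positions only, so counting intervals could not be made, and the number of libraries limits the precision. The labels do not say whether libraries came from separate animals beyond the discs pooled in each, so p-values measure the spread between these libraries.

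Coordinates were converted to 1-based. TAD ends and the next start up to 1 bin apart were merged into 1 border, and sites are single-linkage clusters of borders within 1 bin. Genes came from the RefSeq Release 6 table and were assigned by midpoint, with 13912 gene IDs on the 4 arms. The stretch ends at the last annotated gene. Tests were exact sign-flip tests over the 5 libraries and exact permutation tests of 3 against 2, run with Python 3.11.15, numpy 2.4.6 and pandas 2.3.3 and checked on simulated data. Alternatives moved the limits, the tolerance, the arms, the libraries and the gene set.

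Named genes are the listed ones, the longest genes of the widest TADs and gaps in the pooled lists, and the genes nearest to innermost edges, to sites in all 5 libraries and to sites of 1 disc. Flamenco, CG40813 and its array, the histone genes, lovit and the library-level widest TADs and gaps were picked after seeing their values. The members, the lists and the rules were chosen with earlier results of these data known.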

Additional observations from a re-analysis of the deposited data

How the results depend on the processing

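Of 17 alternatives for the median width, 15 kept it lower near the centromeres; the base-weighted median gave 3.00 kb and the part called in all 5 libraries 12.0 kb, both reversed, and leaving out 1 library gave -16.9 to -13.1 kb. Coverage (14 alternatives), gaps (16), gene density (17) and gene ends at borders (19) kept the direction of their mean in all, with coverage between -17.7 and -2.42 points, gaps between 0.676 and 4.09 points, gene density between -9.30 and -4.44 and gene ends between -0.734 and -0.411. No p could pass 0.05 with 5 libraries, so keeping a side of that threshold says nothing. Between discs, leaving out 1 library gave -28.5 to 12.5 TADs, 2.50 to 6.25 kb and -13.8 to 8.33 points of coverage. With the replicate number as a replicate block (numbers 2 and 3), the differences were 12.5 TADs, 6.25 kb and 8.33 points. The labels do not say what the shared numbers mark, so they were not taken as pairs: eye 2 with antennal 2 matched at 50.5% and eye 3 with antennal 3 at 30.1% of borders near the centromeres, against 29.0% and 47.8% for the other numbering. Matched borders differed by -19.4 points in the part called in all 5 libraries, -18.6 with no tolerance, and, chosen after seeing the data, -19.5 without eye library 1 and antennal library 3 and -9.31 with both restrictions; leaving out 1 library gave -33.9 to -27.0. Sites in eye libraries only numbered 5 with no tolerance and 1 to 30 with 1 library left out, 30 of them without eye library 1, 3 without eye library 3, 3 without antennal library 2 and 2 without antennal library 3. Sites in antennal libraries only numbered 7 in the jointly called part and 20 to 77 with 1 library left out, 77 without antennal library 2 and 62 without antennal library 3, where fewer libraries have to share or lack a border. Depth was not given, and its part in these differences was not tested.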
